A study of Mus musculus with 2 samples.

Results

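The core circadian clock was examined in Foxp3-expressing regulatory T (Treg) cells, the CD4 lineage that restrains immune responses, through 10 genes chosen by name: Arntl, Clock, Per1, Per2, Per3, Cry1, Cry2, Nr1d1, Nr1d2 and Dbp. Each name matched 1 row of the 55246 loci in the authors' count table, and all 10 had the 10 reads over both libraries required for a comparison. The cells were those of the lamina propria (the tissue layer below the epithelium) of the colon of female mice. One library was labelled WT, for wild type, and the other Exon2KO, from mice with the Foxp3∆2 allele, which lacks exon 2 of Foxp3. Each genotype had 1 library. Strain, age, the number of mice in a library and the time of day of collection are not given in the labels. The levels can therefore not be placed at a phase of the daily cycle, and the variation from sample to sample is unknown for every difference. All intervals below are 95% intervals of counting error in these libraries alone, and read duplicates from PCR are not accounted for. In bulk RNA, fewer cells of a type and less RNA per cell cannot be told apart.

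The mammalian clock is a transcriptional feedback loop that runs in nearly every cell, T cells included. The proteins BMAL1 (encoded by Arntl) and CLOCK bind E-box elements as a pair and switch on the Per and Cry genes, whose products return to the nucleus and block the pair. In a second loop, the same pair drives Nr1d1 and Nr1d2, which encode the heme-binding repressors REV-ERB alpha and REV-ERB beta. These bind the ROR response element (RORE) in Arntl and compete there with ROR activators. Dbp is an output factor of the PAR bZIP family, which acts through D-box elements. In tissues with a running clock, Arntl peaks at nearly the opposite time of day from Nr1d1 and Dbp.

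The promoter sequences show which of these elements lie near the transcript starts of the members. RefSeq windows of 300 bases (250 before to 50 after a transcript start, GRCm38.p6) matched 9 of the 10 genes, all but Per2, in 13 windows. Both strands were searched for the E-box CACGTG, for the related E′-box CACGTT, for a D-box (TTATGTAA, TTACGTAA or TTATGCAA) and for the core TAGGTCA of the RORE. The E-box and the E′-box share their first 5 letters. Of all 32851 windows, 7.15% held the E-box, 4.68% the E′-box, 1.78% a D-box and 2.61% the RORE core. Among the members, 2 genes had the E-box, 3 the E′-box, 2 a D-box and 1 the RORE core. Counted by window, as for the background, these were likewise 2, 3, 2 and 1 of the 13 member windows. The matches are given below on the strand of the gene, 5′ to 3′, with the matched letters in capitals and AACGTG standing for the E′-box on the other strand. A match describes the letters and is not evidence of binding.
Per1 E-box, chr11:69098774-69098797: acccaagtcCACGTGcagggatgt
Per1 D-box, chr11:69098916-69098941: ggcctggcaTTATGCAAcccgcctcc
Per3 first D-box, chr4:151044854-151044879: acccgcgcgTTATGTAAggtactcgg
Per3 second D-box, chr4:151044807-151044832: cgcccgcggTTATGTAAcccccgccg
Cry1 E-box, chr10:85185100-85185123: gccggtggtCACGTGgggtgcatg
Cry1 E′-box, chr10:85185119-85185142: cacttcagaAACGTGaggtgccgg
Cry2 E′-box, chr2:92434221-92434244: catggtgggAACGTGagggggcgg
Nr1d1 E′-box, chr11:98775391-98775414: acagatctcAACGTGccggctgct
Arntl RORE core, chr7:113207532-113207556: ggcagaaagTAGGTCAgggacggag
The windows of Clock, Dbp and Nr1d2 held none of these letters. The 250 bases before the start are printed for the members with the highest and the lowest ratio between the libraries, Nr1d1 (chr11:98775378-98775627, minus strand) and Cry2 (chr2:92434070-92434319, minus strand), with the same marks. Neither stretch holds an annotated exon. The G and C content was 54.8% before Nr1d1 and 68.8% before Cry2, and each holds 1 E′-box, 28 bases before the start in Nr1d1 and 166 bases before it in Cry2.
Nr1d1: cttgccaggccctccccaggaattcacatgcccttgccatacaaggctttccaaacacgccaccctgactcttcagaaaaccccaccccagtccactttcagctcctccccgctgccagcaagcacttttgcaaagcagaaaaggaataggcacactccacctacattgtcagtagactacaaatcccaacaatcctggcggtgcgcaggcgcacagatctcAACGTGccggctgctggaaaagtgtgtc
Cry2: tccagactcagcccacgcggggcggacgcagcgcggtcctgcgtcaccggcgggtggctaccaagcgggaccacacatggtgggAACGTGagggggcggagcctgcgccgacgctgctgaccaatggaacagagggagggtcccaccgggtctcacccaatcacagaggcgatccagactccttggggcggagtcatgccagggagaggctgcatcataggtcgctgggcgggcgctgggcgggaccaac

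The libraries held 16281133 (WT) and 15412425 (Exon2KO) reads assigned to genes. Foxp3, the gene with the deletion, had 6991 reads in WT and 20946 in Exon2KO, and a count over the whole gene does not test the label, since only 1 exon is removed. Of 10 T cell markers, all were detected in both libraries. A log2 ratio below 0 was found for 8, beside a median of 0.0035 over all genes compared. The counting interval lay below 0 for 8, against 24.6% of those genes, a share that depends on reads. Only 1, Cd5 at -1.05, was at least 2-fold lower in Exon2KO, against 8.14%, and 0 were 2-fold higher. Treg markers were detected too, with 1 of 12 at least 2-fold higher (Foxp3) and 5 at least 2-fold lower in Exon2KO, against 9.38% and 8.14% of the 17363 genes compared. Markers of other cells were present as well. Epithelial markers summed to 85.9 counts per 1000000 scaled reads (CPM) in WT and 415 in Exon2KO. Of the 15 compared, 11 were at least 2-fold higher in Exon2KO (9.38% of all genes) and 3 had a ratio below 0. Car1 (1.53 and 114 CPM), Krt8 (10.2 and 100) and Krt19 (5.16 and 89.4) held most of the rise. Epcam, the largest of these markers in WT, was lower in Exon2KO, at 49.8 and 38.1 CPM, as was Muc2, at 2.61 and 1.31. Fabp2 and Aqp8 were at 0 in WT. B and plasma cell markers summed to 34264 and 28276 CPM. Markers of gamma-delta T cells and type 3 innate lymphoid cells summed to 19.8 and 74.6 CPM, with Ncr1 and Trgv2 at 0 in WT. Of these, Tcrg-C1 alone held 7.84 and 64.7 CPM and the others 11.9 and 9.94. Among the 7 compared, 4 were at least 2-fold higher and 2 (Kit and Trdv4) at least 2-fold lower, against the same 9.38% and 8.14%, while Trdc had 14 and 13 reads. The part of these cells in the clock gene values below was not tested.

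Among the 10 clock genes Nr1d1 had the ratio farthest from 0. It was 2.67-fold higher and Nr1d2 1.58-fold higher in the Exon2KO library, and both activators were higher as well, Clock by 1.81-fold and Arntl by 1.43-fold. Cry2 went the other way and was 1.99-fold lower. Per1 and Cry1 were slightly higher, and for Dbp, Per2 and Per3 the counting interval of the ratio included 0. Ratios are Exon2KO over WT after library scaling, with a prior count of 2 reads, and a gene was counted as apart when it differed at least 2-fold, a log2 ratio of 1 or -1. By that measure 1 of the 10 clock genes was apart, Nr1d1, against 17.5% of the 17363 genes compared (9.38% higher and 8.14% lower), so the number of clock genes apart was close to the background. Without the prior count, a setting tried after seeing the data, it was 2, since Cry2 then lay at -1.002, against 20.3% of the genes compared. At 1.5-fold, 4 of the 10 were apart, against 32.1%, and at 4-fold 0, against 5.22%. The median log2 ratio of the 10 genes was 0.28, beside 0.0035 over all genes compared.

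The counting interval excluded 0 for 7 of the 10 genes, 6 above 0 and 1 below. Over all genes compared it did so for 47.3%, with 22.8% above and 24.6% below. That share depends on how many reads a gene has. The 17.5% at least 2-fold apart likewise includes genes with as few as 10 reads, and 1334 of those 3041 genes had at least 50. The reads of the 10 genes came to 4971 in WT and 7444 in Exon2KO, or 317 and 466 CPM. Most of that excess lay in Nr1d1, Nr1d2 and Arntl.

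**Figure D1:**
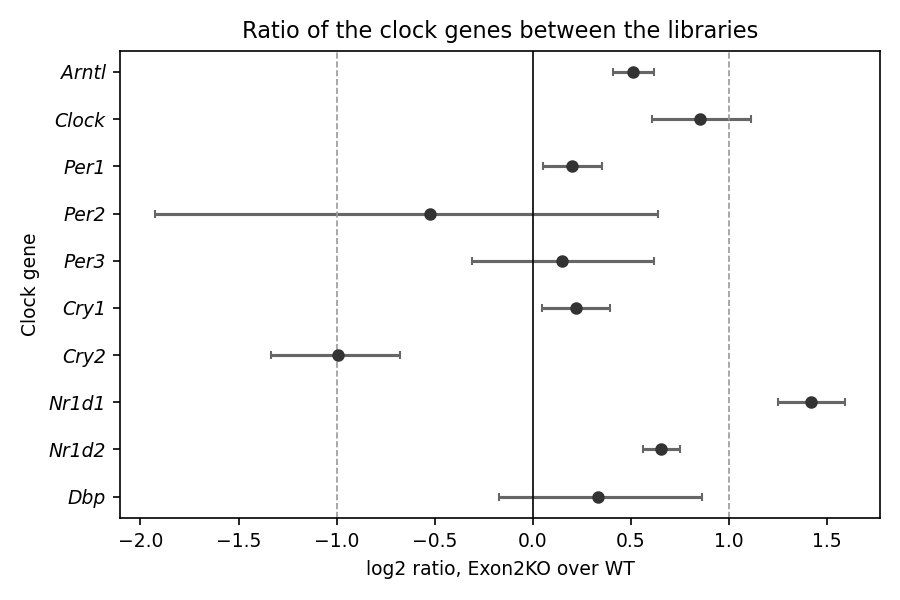
Log2 ratio (Exon2KO over WT, x axis) of each clock gene (y axis), with 1 library per genotype. Points are ratios with a prior count of 2, bars are 95% counting intervals without it, and dashed lines mark a 2-fold difference. Nr1d1 lies beyond 1 at 1.42, Cry2 lies at the opposite line at -0.99, and the widest interval is that of Per2.

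Arntl (ENSMUSG00000055116, chromosome 7, 113207465 to 113314126, plus strand) encodes BMAL1, the clock component without which the loop stops. It had 1304 reads in WT and 1897 in Exon2KO, or 11.0 and 15.8 FPKM (reads per kilobase of gene and 1000000 reads, as deposited). The Exon2KO value was the higher, at a log2 ratio of 0.51 (0.41 to 0.62). Clock (ENSMUSG00000029238, chromosome 5, 76209868 to 76304792, minus strand) encodes its partner, a bHLH-PAS protein. It had 205 and 379 reads, or 0.947 and 1.74 FPKM. Its log2 ratio of 0.85 (0.61 to 1.11) exceeded that of Arntl, with a difference between them of 0.35 (0.08 to 0.61). Such a difference between genes of the same libraries, taken here without the prior count, does not depend on the library scaling. Per length, Arntl was far above Clock in both libraries and held 92.1% of the pair's summed FPKM in WT and 90.1% in Exon2KO.

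Of the Period genes, Per1 (ENSMUSG00000020893, chromosome 11, 69095217 to 69109960, plus strand) was the one with substantial reads. PER proteins carry the CRY proteins into the repressor complex, and Per1 is also an immediate early gene that responds to cAMP and glucocorticoid signals. It had 671 reads in WT and 787 in Exon2KO, or 7.56 and 8.78 FPKM. The log2 ratio was 0.20 (0.05 to 0.35), so the Exon2KO library was the higher by little more than counting error. Per3 (ENSMUSG00000028957, chromosome 4, 151003652 to 151044665, minus strand) had 75 and 85 reads, or 0.495 and 0.556 FPKM, at 0.15 (-0.31 to 0.62). Per2 (ENSMUSG00000055866, chromosome 1, 91415982 to 91459324, minus strand), whose loss disturbs behavioural rhythms, had the fewest reads of the 10 genes, 15 and 10, or 0.162 and 0.107 FPKM. Its log2 ratio of -0.53 (-1.93 to 0.64) leaves a difference in either direction possible. Per1 held 88.2% of the reads of its family in the WT library, with a 95% Wilson interval of 85.7 to 90.3, and 89.2% in the Exon2KO library (87.0 to 91.1). These intervals overlap.

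The Cryptochrome genes differed in direction. CRY1 and CRY2 are related flavoproteins that bind the activator pair directly and block it. Cry1 (ENSMUSG00000020038, chromosome 10, 85131700 to 85185064, minus strand) had 508 reads in WT and 603 in Exon2KO, or 9.64 and 11.3 FPKM, at a log2 ratio of 0.22 (0.05 to 0.39). Cry2 (ENSMUSG00000068742, chromosome 2, 92403646 to 92434043, minus strand) had 234 and 119 reads, or 2.35 and 1.18 FPKM, at -0.99 (-1.33 to -0.68). Cry2 was thus lower in Exon2KO beyond counting error while Cry1 was slightly higher, and their ratios differed by 1.22 (0.86 to 1.58). Cry2 held 31.5% of the Cryptochrome reads in WT (28.3 to 35.0) and 16.5% in Exon2KO (14.0 to 19.4). Its ratio lay just inside the 2-fold threshold with the prior count and just beyond it without, and 8.20% of all genes compared had a lower ratio. The authors' deposited table gives Cry2 a p-value of 0.0256 and an adjusted p-value of 0.249. For 99.9% of the 17363 genes compared, the p-value in that table was within 1% of that of edgeR's exact test with an assumed coefficient of variation between samples (BCV) of 0.2, so it rests on the same assumption and not on a measured spread. Of the exon bases of Cry2, 295 (4.67%) are shared with D930015M05Rik on the other strand, which had 3 and 1 reads.

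The REV-ERB genes were both higher in the Exon2KO library, and by unequal amounts. Nr1d1 (ENSMUSG00000020889, chromosome 11, 98767932 to 98775333, minus strand) had 386 reads in WT and 1054 in Exon2KO, or 7.95 and 21.5 FPKM. The log2 ratio was 1.42 (1.25 to 1.59), above that of 94.5% of all genes compared. Nr1d2 (ENSMUSG00000021775, chromosome 14, 18204054 to 18239127, minus strand) had 1515 and 2435 reads, or 17.8 and 28.3 FPKM, at 0.66 (0.56 to 0.75). Nr1d2 had the larger level in both libraries, and Nr1d1 the larger ratio, with a difference of 0.76 (0.57 to 0.96) between them. Nr1d1 held 20.3% of the pair's reads in WT (18.6 to 22.2) and 30.2% in Exon2KO (28.7 to 31.8). In the exact test of edgeR with that assumed BCV of 0.2, Nr1d1 had an adjusted p-value of 0.0184, and with 0.4 one of 1. With the 2-fold threshold added, 1 of the 10 clock genes passed that test at 0.2, against 6.42% of all genes compared, and 0 passed at 0.4, against 0.945%. An unadjusted p-value below 0.05 was reached by 3 of the 10 at 0.2 (Clock, Cry2 and Nr1d1), against 14.8% of all genes compared, and by 0 at 0.4, against 6.09%. The authors' deposited table, whose p-values match those at a BCV of 0.2 and add no further evidence, gives it a log2 fold change of 1.42 with an adjusted p-value of 0.0238. It was the only clock gene with an adjusted p-value below 0.05 there, against 5.93% of the genes compared here. Exons of Nr1d1 and of Thra, on the opposite strand, share 263 bases, 8.55% of the exon bases of Nr1d1. Thra, a thyroid hormone receptor gene, had 61 and 119 reads, at 0.92 (0.48 to 1.41). The use of strand in counting is not given in the sources used here, so reads in that stretch cannot be assigned with certainty.

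**Figure D2:**
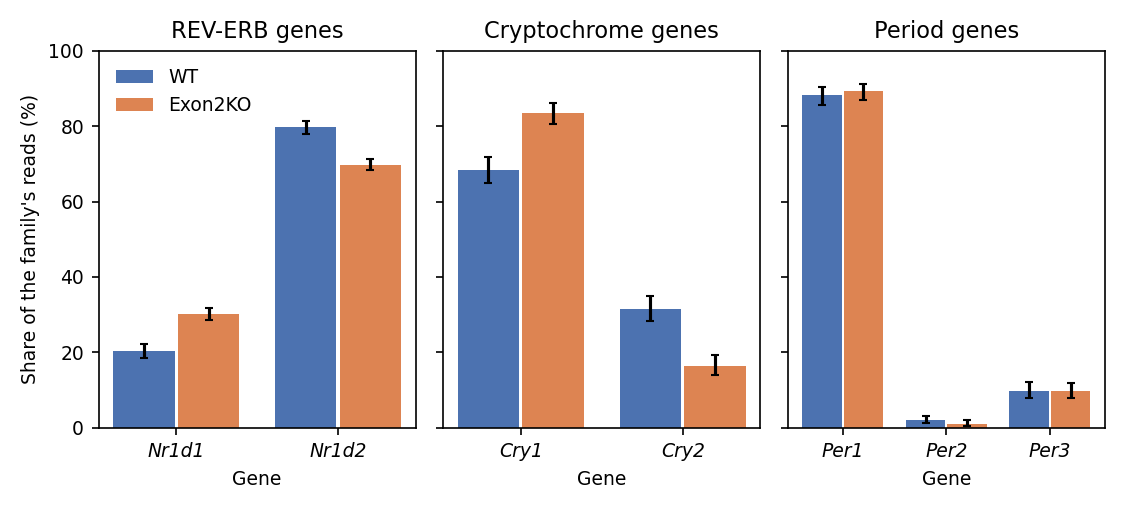
Share of the reads of a gene family (y axis, percent) held by each member (x axis) in the WT and Exon2KO libraries, for the REV-ERB, Cryptochrome and Period genes. Bars are shares from 1 library each and error bars are 95% Wilson intervals. Nr1d1 goes from 20.3% to 30.2% and Cry2 from 31.5% to 16.5%, while the Period shares overlap.

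Dbp (ENSMUSG00000059824, chromosome 7, 45705088 to 45710203, plus strand), usually among the most rhythmic transcripts of a tissue and driven by BMAL1 and CLOCK like Nr1d1, had few reads. The counts were 58 in WT and 75 in Exon2KO, or 1.23 and 1.57 FPKM, at a log2 ratio of 0.33 (-0.17 to 0.86). The intervals of the levels overlapped. Nr1d1 exceeded Dbp in ratio by 1.08 (0.56 to 1.60). Dbp shares 539 bases, 18.01% of its exon bases, with Sphk2 on the other strand, which had 282 and 410 reads at 0.51 (0.29 to 0.74), so the count of Dbp is uncertain.

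Per length, the order of the clock genes in WT was Nr1d2, Arntl, Cry1, Nr1d1, Per1, Cry2, Dbp, Clock, Per3 and Per2, from 17.8 to 0.162 FPKM. In that order Nr1d1 and Per1 did not differ beyond counting error, nor did Dbp and Clock. In Exon2KO the order was Nr1d2, Nr1d1, Arntl, Cry1, Per1, Clock, Dbp, Cry2, Per3 and Per2, from 28.3 to 0.107 FPKM. Here Clock and Dbp did not differ beyond counting error, nor did Dbp and Cry2. Nr1d1 stood in the fourth place in WT and the second in Exon2KO, Clock in the eighth and the sixth, and Cry2 in the sixth and the eighth. Against all genes compared, Nr1d2 stood above 82.9% in WT and 88.4% in Exon2KO, and Nr1d1 above 71.9% and 85.6%. Per2 stood above 9.43% and 5.20%.

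**Figure D3:**
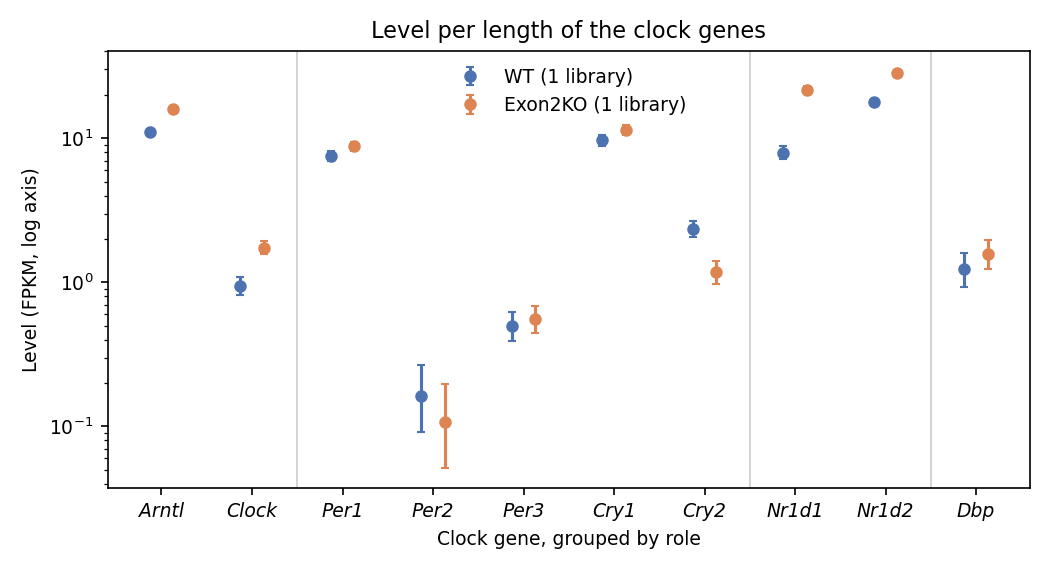
Deposited FPKM (y axis, log scale) of each clock gene (x axis, grouped by role) in the WT and Exon2KO libraries. Points are the values of 1 library each, and bars are 95% Poisson intervals of the read count. The levels run from 28.3 FPKM for Nr1d2 down to 0.107 for Per2, both in Exon2KO, and the 2 points of Nr1d1 are the farthest apart.

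Judged by counting error alone, the members did not share 1 ratio. Of the 45 pairs of clock genes, the interval of the difference of their log2 ratios excluded 0 in 28. Nr1d1 stood above each of the other 9 genes in this way, and Cry2 stood below 8 of them, all but Per2. The pairs reuse the same genes, and pairs of other genes were not compared. The 28 therefore has no background, and whether clock genes differ among themselves more than other genes was not tested. For single genes, the counting interval excluded 0 in 47.3% of all genes compared. The widest gap among the 45 was that of Nr1d1 over Cry2, at 2.42 (2.06 to 2.78). Arntl and Nr1d1 were both higher in Exon2KO, and their ratios differed by 0.91 (0.71 to 1.10). Per1 and Cry1, by contrast, had nearly the same ratio, with a difference of 0.02 (-0.21 to 0.24).

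**Figure D4:**
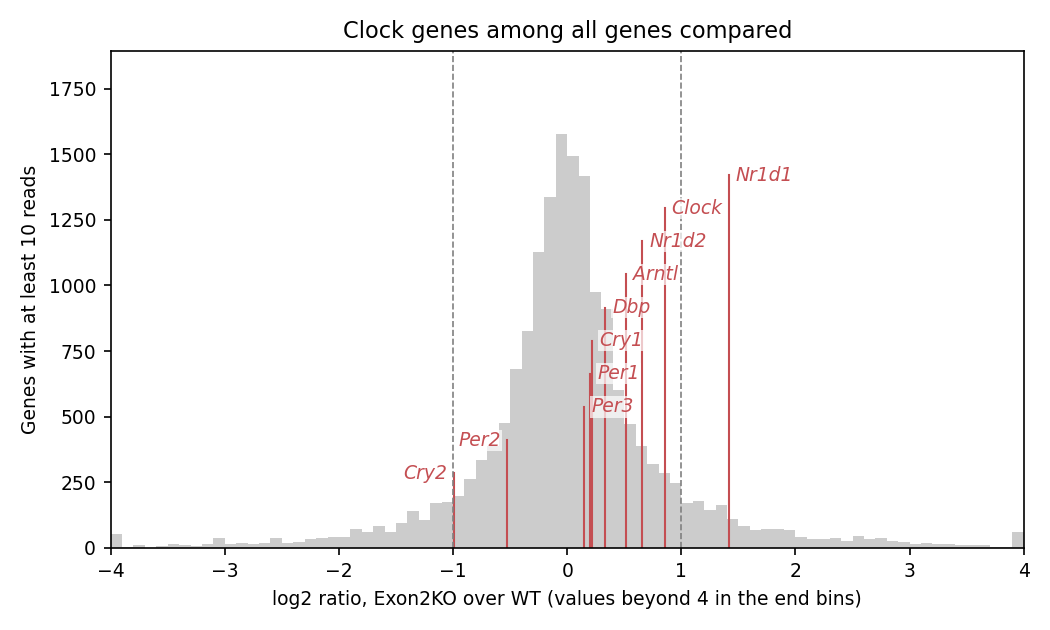
Number of genes (y axis) by log2 ratio, Exon2KO over WT (x axis), for the 17363 genes compared, with the clock genes marked by lines whose height has no meaning. Dashed lines mark a 2-fold difference, and values beyond 4 are in the end bins. Of the 10 lines, 8 stand right of 0, beside a median of 0.0035 over all genes compared. Among those 8, Dbp and Per3 have counting intervals that include 0. Only 1 line, Nr1d1, stands beyond the dashed lines.

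Other transcription factors of the clock network went both ways. Of 12 such genes, 10 were compared; 2 of them, Hlf included, were at least 2-fold higher and 0 lower, beside the background of 9.38% and 8.14%, and the median log2 ratio was 0.17. The other two, named because their reads were too few to compare, were Rorb, with 0 reads in both libraries, and Arntl2, with 1 and 5. Rora, which encodes ROR alpha, an activator that binds the same element as the REV-ERB proteins, had 19059 reads in WT and 10568 in Exon2KO, at -0.88 (-0.91 to -0.84). At 92.5 FPKM in WT and 50.8 in Exon2KO it stood above all 10 clock genes.

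Hlf, a PAR bZIP factor like Dbp, had 456 and 1020 reads, at 1.13 (0.97 to 1.297). Tef, the third factor of that family, had 215 and 205 reads at -0.09 (-0.38 to 0.19) and was named after its value was seen. Nfil3, which encodes the repressor E4BP4 that competes for D-boxes, had 8459 and 13512 reads, at 0.65 (0.61 to 0.69). Its level of 265 and 419 FPKM was far above that of Dbp in both libraries. Bhlhe40, which encodes the E-box repressor DEC1, was also abundant, with 23502 and 23831 reads, and its ratio of -0.01 (-0.03 to 0.02) did not differ from 0 beyond counting error. Ciart, a repressor of the BMAL1 and CLOCK pair that is also named after its value was seen, had 269 and 173 reads, at -0.66 (-0.95 to -0.38).

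All 19 listed enzymes and cofactors that act on clock proteins were compared, and 0 were at least 2-fold apart, against 17.5% of all genes compared; the median was 0.07 and the ratios ran from -0.37 to 0.50. Csnk1d, a kinase that marks PER proteins for degradation, had 3133 reads in WT and 2466 in Exon2KO, at -0.37 (-0.45 to -0.30). Csnk1a1, another casein kinase, had 5373 WT and 5614 Exon2KO reads, at 0.04 (-0.02 to 0.09). Ncor1, the corepressor through which REV-ERB proteins act, had 4101 and 5286 reads, at 0.34 (0.28 to 0.40).

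Of 9 genes listed as outputs of the clock, 1 (Lonrf3) was at least 2-fold higher and 0 lower, close to the 9.38% and 8.14% of all genes compared, and the median was 0.18. Lonrf3 had 15 reads in WT and 101 in Exon2KO, at 2.57 (1.93 to 3.61). Nampt, the rate-limiting enzyme of NAD salvage, had 1763 and 2131 reads, at 0.25 (0.16 to 0.34). Cdkn1a, the cell cycle inhibitor p21, had 9926 and 10624 reads, at 0.07 (0.03 to 0.11). Coq10b, a coenzyme Q-binding protein gene, had 6030 and 5709 reads, at -0.11 (-0.16 to -0.05). Nampt, Cdkn1a and Coq10b were thus all far inside the 2-fold limits, while the ratio of Lonrf3 rested on few WT reads.

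**Figure D5:**
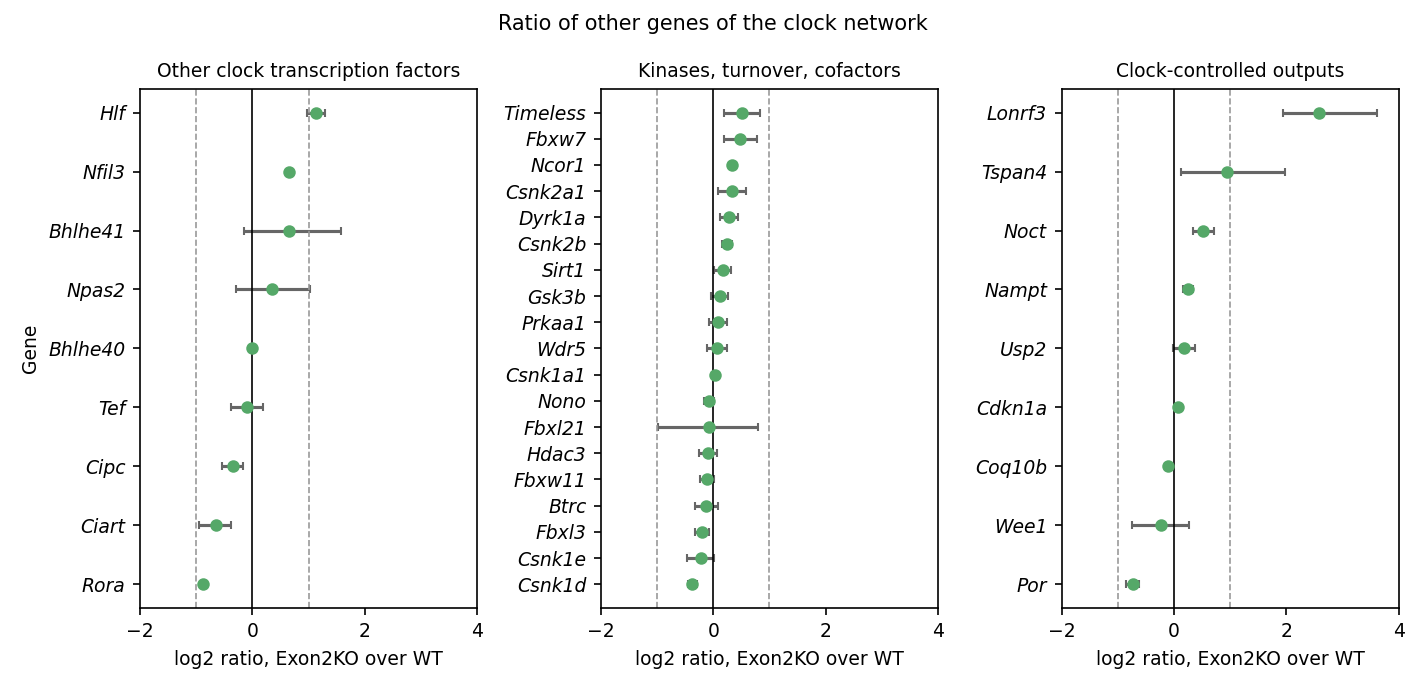
Log2 ratio, Exon2KO over WT (x axis), of the genes reported (y axis) from 3 lists: other clock transcription factors, enzymes and cofactors that act on clock proteins, and clock-controlled outputs. Points are ratios with 1 library per genotype, bars are 95% counting intervals, and dashed lines mark a 2-fold difference. Hlf and Lonrf3 lie beyond the upper line and no gene lies beyond the lower one, Rora being the nearest at -0.88.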

How the data were processed

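Raw counts of reads for each gene, FPKM values, scaled counts (a signal not used here), and a log2 fold change with p-values were deposited by the authors for 1 WT and 1 Exon2KO library. The submitters' processing notes name HISAT2 2.0.5, StringTie 1.3.3b, featureCounts 1.5.0-p3 and DESeq2 1.16.1 on mm10, without their roles; strand use and annotation release are not given in the sources used here. Per length levels are the deposited FPKM, which equal counts per kilobase and 1000000 reads times 1.03 for WT and 0.969 for Exon2KO. Coordinates are as deposited and match GENCODE M21 (GRCm38) for all 10 members.

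Library scaling used edgeR's TMM factors (version 4.0.16, R 4.3.3), 0.964 (WT) and 1.04 (Exon2KO). Since a genotype had 1 library, edgeR's quasi-likelihood test could not be fitted. Log2 ratios used a prior count of 2 for genes with at least 10 reads; their intervals come from the exact (Clopper-Pearson) interval of a gene's Exon2KO share. The calculation of the ratios was tried on simulated counts with known fold changes and counting error only. That trial does not cover variation between samples. edgeR's exact test with an assumed BCV of 0.2 or 0.4, adjusted by Benjamini-Hochberg over all genes, an exact binomial test, DESeq2 1.42.0 size factors, and other priors, read minimums and fold thresholds were alternatives; the one with no prior count was added after the data were seen. Python 3.11.15 with scipy 1.17.1 was used. The members and gene lists were chosen with earlier results of these data known. Named genes are the 10 members, Foxp3 and, of each other list, the 3 genes with the most reads and those at least 2-fold apart with at least 50 reads; exceptions are marked. Marker genes are named only where their levels stand beside a result, and were picked with their values seen. The values of 1 gene of the lists are not reported here.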

Additional observations from a re-analysis of the deposited data

How the results depend on the processing

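The 10 clock gene ratios were recomputed under 3 other scalings and 3 other prior counts, 1 of them (no prior count) chosen after seeing the data, and all 60 values kept their direction. Scaling by total counts raised the median log2 ratio of all genes by 0.104, and that of Arntl to 0.62 and of Nr1d2 to 0.76. The number of clock genes at least 2-fold apart, 1, was the same under these scalings, prior counts of 0.5 and 5, the read minimums and the binomial test, and was 2 (Nr1d1 and Cry2) with no prior count. It depended on the threshold: 4 clock genes (Clock, Cry2, Nr1d1 and Nr1d2) were 1.5-fold apart, and 0 were 4-fold apart. Among the other clock transcription factors the counts were 6 and 0, and among all genes 5569 (32.1%) and 907 (5.22%), against 3041 at 2-fold. A read minimum of 1 gave 5487 genes and one of 50 gave 1334.

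An assumed spread lowered the counts. In edgeR's exact test with a BCV of 0.2, 1115 genes (6.42%) passed an adjusted p-value of 0.05 and 2-fold, with Nr1d1 among them and 0 of the other clock transcription factors, although 3 clock genes (Clock, Cry2 and Nr1d1) and 3 of those factors (Hlf and Rora included) had an unadjusted p-value below 0.05, against 14.8% of all genes. With a BCV of 0.4, 164 genes (0.945%) passed, 0 clock genes and 0 of the other factors, and 0 of either had an unadjusted p-value below 0.05, against 6.09% of all genes. No paired analysis was possible because each genotype has 1 library, which also leaves no library to omit. Among the clock genes, Per2, Dbp and Per3 had the fewest reads.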

Other observations

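Genes of 3 signals that can act on clock genes were read in the same libraries. Of 8 temperature and heat shock genes, 7 had a counting interval below 0 and 1 was at least 2-fold lower in Exon2KO, against 24.6% and 8.14% of all genes compared, with a median log2 ratio of -0.67. The share with an interval off 0 depends on reads, and each of these genes had at least 1153 in either library. Hspa1a, an inducible chaperone, had 3145 reads in WT and 1566 in Exon2KO, at -1.03 (-1.12 to -0.94), and Hspa8 had 51990 and 32073, at -0.72 (-0.74 to -0.70). Hsp90aa1, with 21341 and 21945 reads, was at 0.01 (-0.01 to 0.04). Dnajb1 was at -0.62 (-0.67 to -0.57). Cirbp, a cold-inducible RNA-binding protein gene named after its value was seen, was at -0.13 (-0.19 to -0.06).

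Of 14 immediate early genes, 1 was at least 2-fold lower, close to the 8.14% of all genes: Nr4a2, an orphan nuclear receptor gene, with 2130 and 229 reads, at -3.23 (-3.45 to -3.05). The list median was -0.04. Junb, with 153539 and 149169 reads, was at -0.07 (-0.08 to -0.06), Crem at 0.13 (0.12 to 0.15) and Dusp1 at -0.90 (-0.93 to -0.88). Of 10 genes of the glucocorticoid receptor and its targets, 2 were at least 2-fold higher, against 9.38% of all genes: Ddit4, with 95 and 202 reads at 1.05 (0.70 to 1.43), and Zbtb16, with 11 and 32 reads, which was named after its value was seen. The receptor gene Nr3c1, with 12321 and 12405 reads, was at -0.02 (-0.05 to 0.02). Its target Tsc22d3 was at -0.39 (-0.44 to -0.34) and Il7r at 0.39 (0.33 to 0.46).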
